A study of Mus musculus with 6 samples.

Results

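Macrophages and other myeloid cells of the Achilles tendon were followed through 43 genes: 42 genes for macrophage receptors, myeloid lineage markers, complement, lysozymes, antigen presentation, chemokines and neutrophil proteins, and Mir511, a microRNA gene inside Mrc1. The members were listed by name and function, with earlier results of these data known, so the counts below are descriptions. The 42 genes were read in the RNA-seq table, which holds 53726 features, and Mir511 in the small RNA-seq table, which holds 2262.

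Achilles tendons of mice were compared at 4 weeks of age in 3 genotypes. Control mice carried floxed Dicer alleles without Cre (Dicer f/f). ScxHt mice carried the ScxCre knock-in allele with intact Dicer (ScxCre/+, Dicer +/+), so they controlled for the knock-in itself. Dicer cKO mice carried both (ScxCre/+, Dicer f/f) and asked what loss of Dicer, the enzyme that cuts microRNA hairpins into mature microRNAs, does in tendon. ScxCre is driven from the Scleraxis locus, which is active in tendon and ligament cells, so the myeloid cells in the tissue were not the cells aimed at. Each genotype had 1 RNA-seq and 1 small RNA-seq library of whole tendon RNA. No difference below therefore has a replicate check within these libraries, and no p-value was computed. Library totals ranged from 14959399 to 16244232 counts in RNA-seq and from 8435829 to 10986541 in small RNA-seq. Dicer1 itself had 1919 reads in Control, 2025 in ScxHt and 1621 in Dicer cKO, a Dicer cKO/Control ratio of 0.877 (0.821 to 0.938), and a count over the whole gene does not show a deleted exon. By real-time PCR in several mice per genotype, the paper reported Dicer as significantly lower in Dicer cKO than in Control. In bulk RNA of this kind, fewer cells of a type and less RNA per cell cannot be told apart.

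Tissue macrophages take up debris, iron and matrix fragments through scavenger receptors such as Mrc1 (CD206) and Cd163, depend on the growth factor receptor Csf1r, and are a main source of the C1q proteins that start the classical complement pathway. Resident connective tissue macrophages are often marked by Mrc1, Lyve1, Folr2 and F13a1, and recently arrived monocytes by Ccr2. MiR-511 is transcribed within Mrc1, so the microRNA and its host gene are read from the same stretch of genome.

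Mir511 lies on chromosome 2 at chr2:14261003-14261081, plus strand, GRCm38. In the GENCODE vM21 annotation it sits in intron 5 of Mrc1 (chr2:14229392-14332057, plus strand, 30 exons in the transcript Mrc1-201), 107 bases before exon 6. The hairpin of 79 bases is shown first because the reads of Mir511 in either assay were counted on it. Capitals mark the mature miR-511-3p.
Mir511 hairpin: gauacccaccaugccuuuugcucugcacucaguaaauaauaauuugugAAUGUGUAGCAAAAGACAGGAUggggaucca

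The mature microRNAs below are miR-511-3p and the leukocyte microRNAs it is set beside in the results. Capitals mark the seed, bases 2 to 8 from the 5′ end, which pairs with target mRNAs. None of the 5 seeds is shared within this set, and of 1738 mature mouse microRNAs in the RefSeq table for GRCm38.p6, 1, miR-511-3p itself, has the seed of miR-511-3p.
miR-511-3p: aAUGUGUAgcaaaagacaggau
miR-223-3p: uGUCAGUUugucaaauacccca
miR-142a-3p: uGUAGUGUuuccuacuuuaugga
miR-142a-5p: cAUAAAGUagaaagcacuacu
miR-155-5p: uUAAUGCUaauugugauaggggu

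The myeloid genes were highest in the ScxHt library and lowest in the Dicer cKO library. They held 828.5 RPM (reads of the genes scaled to a library total of 1000000) in Control, 1363 in ScxHt and 667.6 in Dicer cKO. For each pair of libraries, counts were divided by DESeq2 size factors and the ratio of the normalized counts was taken, with a 95% interval that covers counting error only. A gene needed a mean normalized count above 50 in a comparison, and a ratio above 1.67 was counted as higher and a ratio below 0.60 as lower. In ScxHt/Control, 33 of the 42 genes passed that minimum, and 16 of them were higher and 0 lower, against 3.03% and 4.71% of the 13462 features tested. At limits of 2 and 0.5 the 16 became 4, and they became 3 where the whole interval had to lie above 1.67, since genes such as Lyve1 and Mrc1 lay close to the limit. Their median log2 ratio was 0.73, beside 0.02 over all features. In Dicer cKO/ScxHt, 32 passed, and 26 were lower and 0 higher, against 5.68% and 7.68% of 13455 features, with a median log2 ratio of -1.09 beside -0.03. In Dicer cKO/Control, 30 passed, and 4 were lower and 0 higher, against 4.19% and 3.87% of 13404 features, with a median log2 ratio of -0.40 beside -0.03. The 4 became 2 at limits of 2 and 0.5 or with a minimum of 200, and 7 at 1.5 and its inverse. The comparisons share libraries, so the ScxHt library stands in both sets with many genes past a threshold. The median log2 ratio of the Dicer cKO library against Control was smaller in size than that of ScxHt against Control.

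The intervals were also read without a fold limit. In ScxHt/Control the interval lay above 1 for 28 of 33 genes (26.4% of all features) and below 1 for 1, Cx3cr1 (23.8%). In Dicer cKO/Control it lay below 1 for 20 of 30 genes (28.5%) and above 1 for 0 (21.6%). In Dicer cKO/ScxHt it lay below 1 for 30 of 32 genes (30.6%) and above 1 for 0 (24.9%). With size factors over the 3 libraries, 26 of the 30 genes that passed in every comparison had the order ScxHt, Control, Dicer cKO from high to low, or 86.7%, while 23.1% of 13020 features had this order. The exceptions were Siglec1, Cx3cr1, Ccr2 and Gpnmb. Of the other 12 genes, Folr2, Pf4 and Cd14 passed only in comparisons with ScxHt, where each had its most reads, and 9 passed in none. Over the 30 genes that passed in every comparison, 14 were higher in ScxHt/Control and 24 were lower in Dicer cKO/ScxHt.

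**Figure D1:**
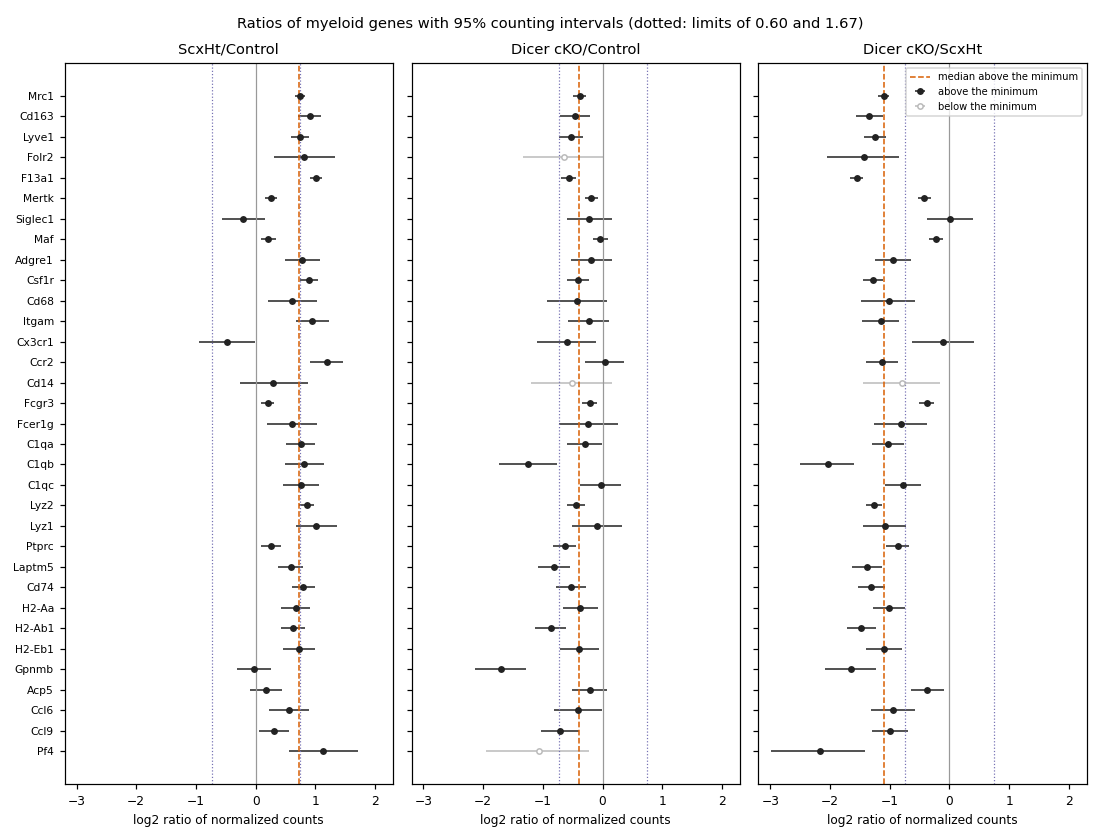
Ratios of the 33 myeloid genes that passed the minimum in at least 1 comparison, on a log2 axis, in 3 panels: ScxHt/Control, Dicer cKO/Control and Dicer cKO/ScxHt. Points are single-library ratios with 95% counting intervals, open grey points are below the minimum in that comparison, the dashed line is the median of the genes above it (0.73, -0.40 and -1.09) and dotted lines are the limits of 0.60 and 1.67. Most points sit right of 0 in the left panel and left of 0 in the other panels.

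Scavenger receptors and resident macrophage genes formed the largest group by reads, with 401.1 RPM in Control, 669.8 in ScxHt and 336.2 in Dicer cKO. Mrc1, the mannose receptor, had 1645 reads in Control, 2882 in ScxHt and 1218 in Dicer cKO. Its ratio was 1.68 (1.58 to 1.78) in ScxHt/Control, 0.769 (0.713 to 0.828) in Dicer cKO/Control and 0.466 (0.435 to 0.498) in Dicer cKO/ScxHt. F13a1, the coagulation factor XIII A chain, had 1320, 2781 and 858 reads in the same order of libraries. Its ratios were 2.02 (1.89 to 2.16) in ScxHt/Control and 0.675 (0.619 to 0.736) in Dicer cKO/Control. Cd163, the receptor for haemoglobin bound to haptoglobin, had 331, 647 and 232 reads, with ratios of 1.87 (1.64 to 2.14) and 0.728 (0.613 to 0.863).

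Lyve1, a hyaluronan receptor of resident macrophages and of lymphatic vessels, had 528, 921 and 352 reads, with ratios of 1.67 (1.5 to 1.86) in ScxHt/Control and 0.692 (0.603 to 0.794) in Dicer cKO/Control. The 6 lymphatic markers other than Lyve1 had a median log2 ratio of 0.07 in ScxHt/Control and -0.28 in Dicer cKO/Control. The medians over all features were 0.02 and -0.03. Of the 6 lymphatic markers, 0 were higher in ScxHt/Control, against 3.03% of all features. Folr2, a folate receptor, had 52, 95 and 32 reads and a ScxHt/Control ratio of 1.75 (1.24 to 2.50). Cd209f, a C-type lectin, had 21, 61 and 21 reads and did not pass the minimum in any comparison.

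The other 3 genes of this set differed less between the libraries. Mertk, the receptor by which macrophages take up apoptotic cells, had 1355, 1689 and 1147 reads, with ratios of 1.19 (1.11 to 1.28) in ScxHt/Control and 0.879 (0.812 to 0.952) in Dicer cKO/Control. Maf, a transcription factor of resident macrophages that other cell types also use, had 1125, 1362 and 1056 reads and a Dicer cKO/Control ratio of 0.975 (0.895 to 1.06). Siglec1, a sialic acid receptor, had 138, 125 and 114 reads, and its intervals held 1 in all 3 comparisons. In ScxHt/Control, the intervals of Mertk, Maf and Siglec1 all lay below the members' median.

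Among the core lineage markers, Csf1r had 574 reads in Control, 1113 in ScxHt and 416 in Dicer cKO, with ratios of 1.86 (1.68 to 2.06) in ScxHt/Control and 0.753 (0.662 to 0.855) in Dicer cKO/Control. Adgre1, which encodes an adhesion receptor of macrophages, had 161, 289 and 136 reads and ratios of 1.72 (1.41 to 2.10) and 0.877 (0.693 to 1.11). Itgam, the CD11b integrin chain, had 157, 316 and 129 reads and ratios of 1.93 (1.59 to 2.35) and 0.853 (0.671 to 1.08). For Adgre1 and Itgam the Dicer cKO/Control interval held 1, while ScxHt stood above both other libraries. Cd68, a lysosomal membrane protein, had 85, 136 and 61 reads and a ScxHt/Control ratio of 1.53 (1.16 to 2.03).

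The monocyte and macrophage chemokine receptors went apart. Ccr2, the receptor by which monocytes leave the blood, had 161 reads in Control, 383 in ScxHt and 159 in Dicer cKO. Its ScxHt/Control ratio of 2.28 (1.89 to 2.76) was the highest among the 33 genes that passed, and its Dicer cKO/Control ratio was 1.03 (0.818 to 1.28), the only ratio above 1 among the 30 there with these size factors, while C1qc and Maf also came to 1.02 under total-count scaling. Cx3cr1, the fractalkine receptor, had 93, 70 and 59 reads, and its ratio was 0.721 (0.521 to 0.994) in ScxHt/Control and 0.659 (0.467 to 0.923) in Dicer cKO/Control. Ccr2 was thus high in ScxHt alone, and Cx3cr1 was highest in Control. The ligand gene Cx3cl1 had 118, 115 and 54 reads and a Dicer cKO/Control ratio of 0.475 (0.338 to 0.661).

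The lowest-count lineage markers did not pass the minimum in any comparison. Spi1, which encodes the myeloid transcription factor PU.1, had 47, 47 and 31 reads, and Itgax, the CD11c chain, had 41, 33 and 28. Aif1, which encodes IBA1, had 10, 6 and 20 reads, and it was highest in Dicer cKO. At this depth no difference of Spi1 or Itgax was detectable, since their intervals held 1 in every comparison.

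Receptors of the innate and antibody response held 81.8 RPM in Control, 103.9 in ScxHt and 73.9 in Dicer cKO. Fcgr3, a low-affinity antibody receptor, had 1146, 1370 and 952 reads and a ScxHt/Control ratio of 1.15 (1.06 to 1.24), whose interval lay below the members' median. Fcer1g, the signalling chain that antibody receptors share, had 82, 130 and 67 reads and a ScxHt/Control ratio of 1.52 (1.14 to 2.03). Cd14, a co-receptor for lipopolysaccharide, had 49, 63 and 33 reads, and the interval of its ScxHt/Control ratio held 1. Tyrobp, the adaptor DAP12, had 34, 47 and 29 reads, Trem2, a lipid-sensing receptor that signals through it, 11, 13 and 15, and Fcgr1, the high-affinity antibody receptor, 6, 16 and 10. None of these 3 passed the minimum.

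The complement genes C1qa, C1qb and C1qc encode the chains of C1q and lie next to each other on chromosome 4, at chr4:136895917-136898803, chr4:136880129-136886187 and chr4:136889804-136893065, all on the minus strand. C1qa had 222 reads in Control, 391 in ScxHt and 174 in Dicer cKO, C1qb had 128, 235 and 52, and C1qc had 151, 267 and 142. In ScxHt/Control the intervals of all 3 overlapped, with ratios of 1.69 (1.43 to 2.0), 1.76 (1.41 to 2.20) and 1.69 (1.38 to 2.08). In Dicer cKO/Control they were 0.814 (0.664 to 0.997) for C1qa, 0.422 (0.30 to 0.587) for C1qb and 0.977 (0.771 to 1.24) for C1qc. The interval of C1qb did not overlap those of its neighbours there, while those of C1qa and C1qc overlapped each other.

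Promoters are printed for Mrc1 as the host of Mir511, for C1qb and C1qc as neighbours that differed in Dicer cKO, and for Pf4. Pf4 had the lowest Dicer cKO/ScxHt ratio among the 32 genes that passed there, but it passed through its ScxHt reads and did not pass in Dicer cKO/Control. The printed promoters are RefSeq windows of 300 bases on GRCm38.p6, from 250 bases before to 50 after the RefSeq start, in the direction of the gene. That start can differ from the gene positions given above. For C1qc, most of the window lies inside the gene span given above. Capitals mark the letters GAGGAA on either strand, a core that PU.1 and other ETS factors can bind. These letters were found in 28.3% of all 32851 windows and in 16 of the 37 windows of the 31 members that had any. A match is a description of the sequence and not a site.
Mrc1 promoter, chr2:14229164-14229463, plus strand: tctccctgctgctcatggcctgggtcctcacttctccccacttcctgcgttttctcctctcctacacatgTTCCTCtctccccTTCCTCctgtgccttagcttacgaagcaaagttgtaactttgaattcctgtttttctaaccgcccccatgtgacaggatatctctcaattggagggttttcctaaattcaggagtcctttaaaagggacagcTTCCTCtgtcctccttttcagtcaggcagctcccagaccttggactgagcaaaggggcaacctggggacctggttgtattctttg
C1qb promoter, chr4:136886151-136886450, minus strand: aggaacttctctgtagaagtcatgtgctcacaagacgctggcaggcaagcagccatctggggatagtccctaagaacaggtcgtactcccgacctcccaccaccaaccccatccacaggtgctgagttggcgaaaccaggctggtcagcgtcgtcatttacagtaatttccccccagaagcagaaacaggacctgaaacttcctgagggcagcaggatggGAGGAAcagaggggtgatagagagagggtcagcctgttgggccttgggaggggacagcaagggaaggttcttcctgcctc
C1qc promoter, chr4:136892865-136893164, minus strand: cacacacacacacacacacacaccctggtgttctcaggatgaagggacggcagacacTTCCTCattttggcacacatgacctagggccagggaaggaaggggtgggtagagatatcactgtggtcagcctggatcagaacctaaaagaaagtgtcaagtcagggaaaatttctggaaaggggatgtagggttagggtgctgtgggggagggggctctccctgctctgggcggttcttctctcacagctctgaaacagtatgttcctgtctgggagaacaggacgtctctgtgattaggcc
Pf4 promoter, chr5:90772185-90772484, plus strand: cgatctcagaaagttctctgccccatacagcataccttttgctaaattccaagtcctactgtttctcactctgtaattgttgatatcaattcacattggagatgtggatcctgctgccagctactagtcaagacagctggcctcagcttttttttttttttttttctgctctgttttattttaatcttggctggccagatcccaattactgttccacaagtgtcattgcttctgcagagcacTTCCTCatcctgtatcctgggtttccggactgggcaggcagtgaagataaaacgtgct

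C1qb holds the letters 1 time on the forward strand and C1qc 1 time on the reverse strand. Whether the letters bear on the ratios of these genes was not tested. Mrc1 holds them 3 times on the reverse strand and Pf4 1 time.

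The lysozyme genes Lyz2 and Lyz1 are near-identical neighbours on chromosome 10, and reads may have been split between them by the counting, so each value alone is uncertain. Lyz2, the lysozyme of macrophages, had 870 reads in Control, 1641 in ScxHt and 618 in Dicer cKO, with ratios of 1.81 (1.66 to 1.96) in ScxHt/Control and 0.738 (0.664 to 0.819) in Dicer cKO/Control. Lyz1 had 105, 221 and 95 reads, and ratios of 2.02 (1.59 to 2.57) and 0.940 (0.704 to 1.25). Both were highest in ScxHt.

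Of the general leukocyte genes, Ptprc, which encodes the phosphatase CD45, had 553 reads in Control, 688 in ScxHt and 343 in Dicer cKO. Its ratios were 1.19 (1.06 to 1.34) in ScxHt/Control and 0.644 (0.561 to 0.738) in Dicer cKO/Control. Laptm5, a lysosomal protein of blood cells, had 328, 514 and 180 reads and ratios of 1.5 (1.30 to 1.73) and 0.570 (0.472 to 0.686). Both genes were farther below Control in Dicer cKO than the members' median, with intervals that did not hold it.

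The 4 genes of antigen presentation by class II molecules were highest in ScxHt and lowest in Dicer cKO. Cd74, the invariant chain, had 330, 600 and 220 reads, and ratios of 1.74 (1.52 to 2.0) in ScxHt/Control and 0.692 (0.581 to 0.824) in Dicer cKO/Control. H2-Ab1, a class II beta chain, had 355, 574 and 187 reads, with ratios of 1.55 (1.35 to 1.77) and 0.547 (0.456 to 0.655). H2-Aa had 231, 383 and 172 reads and H2-Eb1 had 185, 320 and 136, with Dicer cKO/Control ratios of 0.773 (0.631 to 0.946) and 0.763 (0.607 to 0.958). Class II genes are a family of similar genes, and single values may shift with how reads were assigned.

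Outside the members, Ciita, the transcriptional activator of class II genes, had 87, 112 and 36 reads, a ratio of 1.23 (0.924 to 1.65) in ScxHt/Control and 0.430 (0.283 to 0.640) in Dicer cKO/Control. Ctss, the cathepsin that trims the invariant chain, had 372, 649 and 201 reads and ratios of 1.67 (1.47 to 1.90) and 0.561 (0.470 to 0.668). Of the 10 further class II presentation genes listed, 4 passed in Dicer cKO/Control, and 3 were lower (Ciita, Ctss and the co-stimulatory ligand gene Cd86) and 0 higher. Over all features, 4.19% were lower and 3.87% higher there. Cd86 had 100, 64 and 55 reads, and its ratio was also below 1 in ScxHt/Control, at 0.613 (0.441 to 0.847), unlike those of Ctss and the 4 class II members.

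Gpnmb and Acp5 stand for lipid-laden macrophages and osteoclasts. Gpnmb, a lysosomal glycoprotein, had 205 reads in Control, 211 in ScxHt and 61 in Dicer cKO. Its Dicer cKO/Control ratio of 0.309 (0.228 to 0.413) was the lowest among the 30 genes that passed, and its ScxHt/Control ratio was 0.986 (0.810 to 1.20). Dicer cKO stood below both other libraries, and no difference of Gpnmb between ScxHt and Control was detectable. Acp5, the tartrate-resistant acid phosphatase, had 222, 262 and 184 reads, and its intervals held 1 against Control. Of 11 further osteoclast markers, 4 passed, and 0 were higher or lower in Dicer cKO/Control or ScxHt/Control. Between 3.03% and 4.71% of all features passed each limit there.

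Among the chemokine genes, Ccl6 had 126 reads in Control, 193 in ScxHt and 91 in Dicer cKO, with a ScxHt/Control ratio of 1.47 (1.17 to 1.85) and a Dicer cKO/Control ratio of 0.750 (0.566 to 0.990). Ccl9 had 236, 305 and 139 reads, and ratios of 1.24 (1.04 to 1.47) and 0.612 (0.492 to 0.757). Pf4, platelet factor 4, which resident macrophages also express, had 39, 89 and 18 reads, a ScxHt/Control ratio of 2.19 (1.48 to 3.27) and a Dicer cKO/ScxHt ratio of 0.223 (0.126 to 0.373). It passed the minimum in these comparisons through its ScxHt reads and did not pass in Dicer cKO/Control. All 3 chemokine genes were highest in ScxHt.

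The neutrophil members S100a8 and S100a9 had next to no reads. S100a9 had 0 reads in all 3 libraries, and S100a8 had 0 in Control, 2 in ScxHt and 0 in Dicer cKO. A count of 0 allows up to 0.185 RPM in the Control library, for counting error only. Of 12 further neutrophil markers, 7 were at 0 in every library, Ly6g and Camp among them, and 0 passed the minimum. The macrophage markers Csf1r, Adgre1, Cd68 and Mrc1 had more reads in every library than any gene of the neutrophil list. The highest of the neutrophil list were Lcn2, with 22, 40 and 22 reads, and Csf3r, with 16, 6 and 10, named after their values were seen. Some macrophage and myeloid members were as low as these, such as Aif1 with 10, 6 and 20 reads, Fcgr1 with 6, 16 and 10 and Trem2 with 11, 13 and 15.

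Levels between genes were compared per length, as the deposited RPKM. Lyz2 (40.7 RPKM in Control, 79.1 in ScxHt and 31.4 in Dicer cKO) and Fcgr3 (40.6, 50.1 and 36.7) were the highest members, and Mertk and Mrc1 followed in Control with 19.2 and 15.9. Cd74, H2-Ab1, C1qa, F13a1 and Lyve1 came next in Control, from 14.4 down to 11.1. Fcgr3 stood first in the Dicer cKO library and Lyz2 in the other libraries. With 1 library each, neighbours in this order cannot be told apart by a spread between mice.

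**Figure D2:**
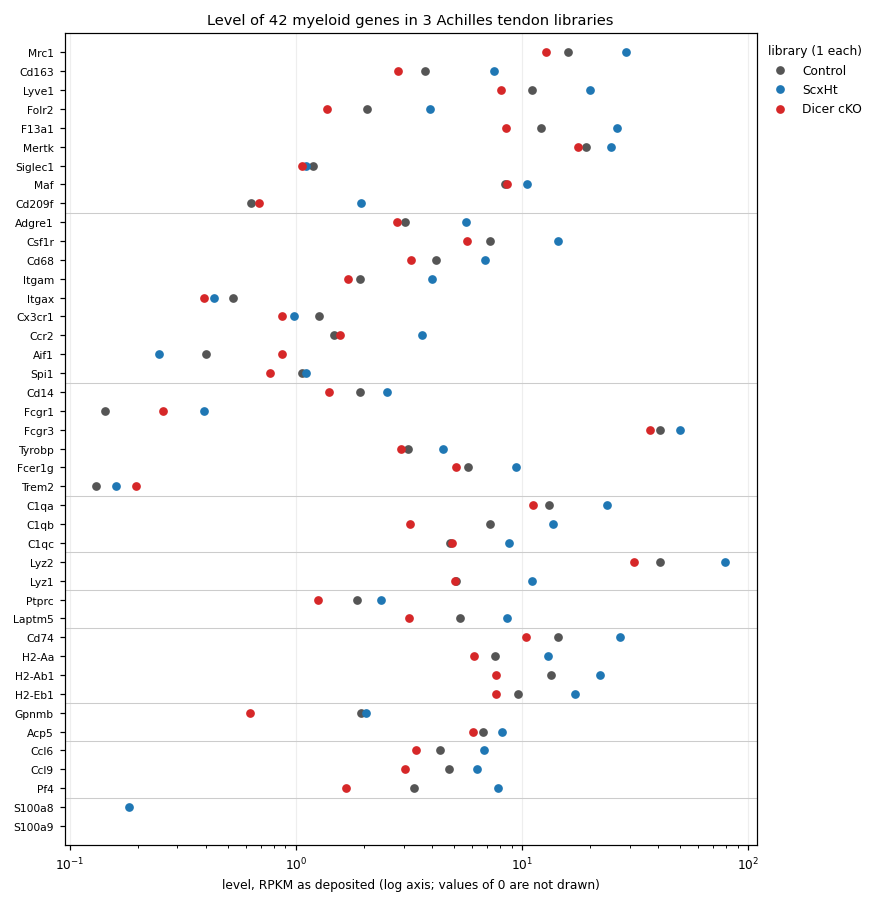
Level of each of the 42 genes in RPKM (log axis) in the Control, ScxHt and Dicer cKO libraries, with 1 point per library and no error bar because each genotype had 1 library. Genes are grouped by role, and S100a9, at 0 in all, has no point. For most genes the ScxHt point lies to the right of both others, for Mrc1 at 28.7 against 15.9 in Control and 12.8 in Dicer cKO.

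Mir511 had few reads in small RNA-seq, 34 in Control, 27 in ScxHt and 3 in Dicer cKO, or 3.09, 3.20 and 0.356 RPM. It ranked 291 of the 634 features with reads in Control and 425 of 579 in Dicer cKO. In small RNA-seq the minimum mean normalized count was 15. The Dicer cKO/Control ratio was 0.101 (0.0199 to 0.322), where 4.19% of 334 features had a ratio below 0.60. Mir511 passed the minimum there through its Control reads. The ScxHt/Control ratio was 0.895 (0.519 to 1.53), where 6.93% of 332 features lay below 0.60, and it was 1.03 under total-count scaling. In Dicer cKO/ScxHt it was 0.111 (0.0216 to 0.361), where 2.17% of 322 features lay below 0.60, with a mean count that did not exceed the minimum. The Dicer cKO count of 3 reads is at the floor, so the size of this ratio is poorly fixed, although its interval lay below 0.60. The paper listed miR-511 with the same Dicer cKO/Control ratio, 0.101, from these libraries. By real-time PCR it reported miR-135a and miR-1247 as significantly lower in Dicer cKO, and its text makes no such statement for miR-511.

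Set beside its host gene, Mir511 was lower than Mrc1 in Dicer cKO. The Mir511 ratio divided by the Mrc1 ratio was 0.132 (0.0258 to 0.420) in Dicer cKO/Control, 0.533 (0.308 to 0.914) in ScxHt/Control and 0.239 (0.0462 to 0.778) in Dicer cKO/ScxHt. Mrc1 and Mir511 thus differed in both comparisons with Control. In ScxHt, Mrc1 was above Control and the interval of Mir511 held 1. In Dicer cKO, Mir511 was further below Control than Mrc1. The host and the microRNA were read in separate libraries made from RNA of the same tendon sample.

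In Dicer cKO/Control, the other leukocyte microRNAs differed much less than Mir511, which had 3 reads in Dicer cKO. In ScxHt/Control, Mir511 and Mir142 had the same ratio, 0.895. Mir223, abundant in myeloid cells, had 6582 reads in Control, 6750 in ScxHt and 4756 in Dicer cKO, with ratios of 1.16 (1.12 to 1.20) in ScxHt/Control and 0.828 (0.798 to 0.860) in Dicer cKO/Control. Mir142, expressed across blood cells, had 6904, 5484 and 4654 reads and a Dicer cKO/Control ratio of 0.773 (0.744 to 0.802). Mir155, induced in activated leukocytes, had 686, 696 and 508 reads and a ratio of 0.849 (0.755 to 0.953). Divided by Mir223, the Dicer cKO/Control ratio of Mir511 was 0.122 (0.0240 to 0.389), and divided by Mir142 it was 0.131 (0.0257 to 0.417). Of the 9 listed microRNAs above the minimum, 1, Mir511, was lower in Dicer cKO/Control and 0 were higher. Over all small RNA-seq features, 4.19% were lower there. Without a fold limit, all 9 had ratios and whole intervals below 1 there. Their median log2 ratio was -0.33, beside -0.02 over all features. The share of all small RNA-seq features with an interval below 1 was not counted.

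**Figure D3:**
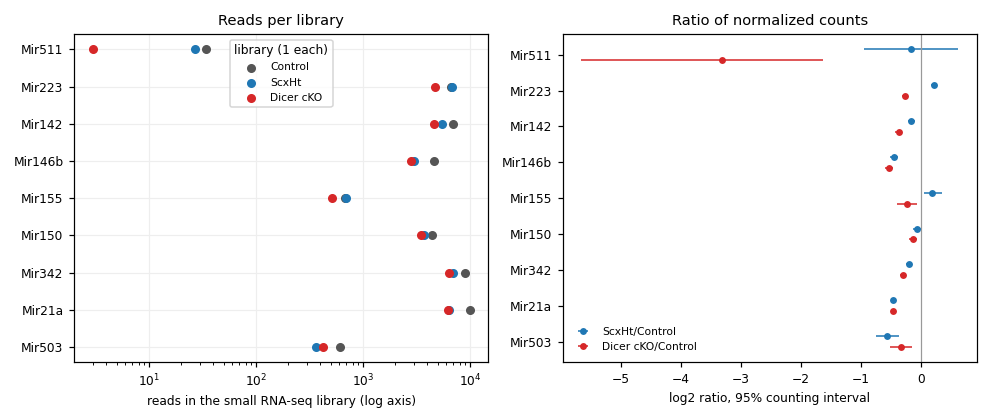
Reads of 9 leukocyte and myeloid microRNA genes in the 3 small RNA-seq libraries (left, log axis) and their log2 ratios in ScxHt/Control and Dicer cKO/Control with 95% counting intervals (right), 1 library per genotype. Mir511, at 34, 27 and 3 reads, lies far below the others in reads, and its Dicer cKO/Control interval is the widest and lowest.

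Macrophage genes that are not members were read from a list of 26. In ScxHt/Control, 20 passed, and 3 were higher (the lectin gene Clec4a2, the carbonyl reductase gene Cbr2 and Timd4, which encodes a receptor for dying cells) and 0 lower. Over all features, 3.03% were higher and 4.71% lower. Clec4a2 and Timd4, with 45 and 40 reads in Control, passed the minimum through their ScxHt reads and did not pass in Dicer cKO/Control. In Dicer cKO/Control, 16 passed, and 4 were lower and 0 higher, against 4.19% and 3.87% of all features. The median log2 ratio there was -0.48, beside -0.03 over all features. Among the lower genes were Ms4a6b, the inhibitory receptor gene Lilrb4a and Ncf1, which encodes a subunit of the phagocyte NADPH oxidase. Timd4 and Ncf1 were named after their values were seen. Ncf1 had 190, 299 and 109 reads, and Lilrb4a had 274, 382 and 148. Clec4a2 had 45, 97 and 25 reads and a ScxHt/Control ratio of 2.06 (1.44 to 3.01).

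Of the growth factors that sustain macrophages, Csf1 had 1089 reads in Control, 1215 in ScxHt and 783 in Dicer cKO, and its Dicer cKO/Control ratio was 0.747 (0.680 to 0.819), while Il34 had 62, 45 and 74. These 2 ligand genes of Csf1r were named after their values were seen. Of 9 genes in the Csf1 and related growth factor list, 5 passed, and 0 were higher or lower in Dicer cKO/Control or ScxHt/Control. Between 3.03% and 4.71% of all features passed each limit there.

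Of 12 complement pathway genes outside C1q, 11 passed in both comparisons with Control. In ScxHt/Control, 2 were higher and 0 lower, against 3.03% and 4.71% of all features. Cfp, which encodes properdin, was higher, with 93, 188 and 96 reads and a ratio of 1.94 (1.5 to 2.51). In Dicer cKO/Control, 0 were higher or lower, against 3.87% and 4.19% of all features. The 11 lysosomal genes had a median log2 ratio of 0.38 in ScxHt/Control and -0.21 in Dicer cKO/Control, with 0 past either limit. The medians over all features were 0.02 and -0.03.

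Among genes induced by interleukin 4, Mgl2, a lectin, had 165, 268 and 86 reads and a Dicer cKO/Control ratio of 0.541 (0.412 to 0.707), and Clec10a had 40, 74 and 19 and a ScxHt/Control ratio of 1.77 (1.19 to 2.67), in a comparison where it passed the minimum through its ScxHt reads. Of 8 inflammatory genes, 1 passed in Dicer cKO/Control, Nos2 (inducible nitric oxide synthase), with 61, 37 and 100 reads and a ratio of 1.70 (1.23 to 2.38). The transcription factor gene Ikzf1 had 96, 165 and 55 reads and a Dicer cKO/Control ratio of 0.595 (0.419 to 0.837). Klf4, used by many cell types, had 2323, 1634 and 816 reads and a ratio of 0.365 (0.336 to 0.395).

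Markers of other cell types also differed between the 3 tendon samples, and these values stand beside every result above. The 10 skeletal muscle markers held 5.44% of the reads in Control, 3.05% in ScxHt and 9.44% in Dicer cKO, which is the reverse of the order of the summed myeloid genes. Ttn held most of these reads, and without it the other 9 held 1.20%, 0.967% and 2.34%. Single muscle genes differed in direction in ScxHt/Control, where 3 of the 10 were higher (among them Myh4, with a ratio of 4.70) and 4 lower. Over all features, 3.03% were higher and 4.71% lower there. The 10 tendon fibroblast markers held 13.6%, 11.9% and 7.80%. The 10 Schwann cell markers held 235.0, 306.9 and 714.5 RPM, the 7 erythroid markers 189.4, 194.6 and 461.5, and the 10 blood endothelium markers 760.9, 558.9 and 871.8. The 10 T and NK cell markers held 1.60, 1.78 and 1.07 RPM, with 4 of them at 0 in all. Dendritic cells, B cells and mast cells share single members, such as the class II genes, Itgax or Fcer1g. The 10 dendritic cell markers held 56.9, 55.7 and 56.6 RPM, the 10 B cell markers 142.2, 131.5 and 119.7, and the 10 mast cell markers 25.2, 29.6 and 29.5. Single genes carried much of these sums, such as Ebf1 in the B cell list with 1996, 1805 and 1515 reads and Kit in the mast cell list with 221, 184 and 241. In the dendritic cell list they were Cd24a, with 438, 489 and 508, and Zbtb46, with 302, 219 and 208. The other dendritic genes had few reads and differed in direction. Flt3 (24, 19 and 5) and Cd209a (31, 39 and 7) were lowest in Dicer cKO, and Itgae (35, 16 and 43) and Xcr1 (6, 7 and 10) highest there. The dendritic sum thus does not show whether dendritic cell content differed. All genes named for these sums were named after their values were seen. Cpa3, a mast cell protease gene, had 64, 117 and 52 reads and a ScxHt/Control ratio of 1.75 (1.28 to 2.41), so it was highest in ScxHt and lowest in Dicer cKO. The other protease genes of the list did not share 1 order, and none passed the minimum. Mcpt4 had 33, 56 and 28 reads, Cma1 38, 47 and 44, Tpsb2 9, 28 and 42, and Tpsab1 10, 9 and 8. These were named after their values were seen. The part of muscle, nerve, blood or vessel content in the myeloid ratios was not tested.

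**Figure D4:**
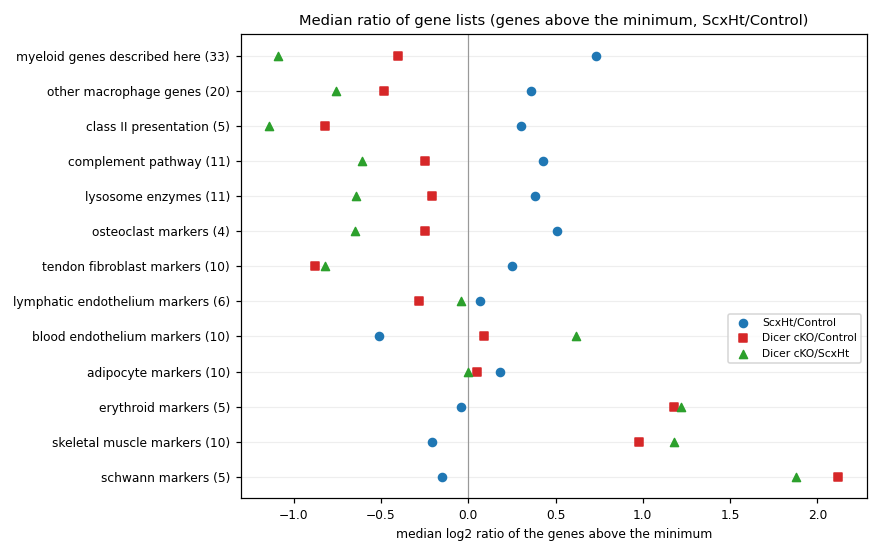
Median log2 ratio of each gene list among its genes above the minimum, in ScxHt/Control (circles), Dicer cKO/Control (squares) and Dicer cKO/ScxHt (triangles), with the number of genes above the minimum in ScxHt/Control in brackets. The myeloid genes have the highest ScxHt/Control median drawn, at 0.73, while erythroid, skeletal muscle and Schwann cell markers lie to the right in Dicer cKO.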

How the data were processed

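RNA-seq and small RNA-seq of Achilles tendon were analysed, with 1 library per genotype and assay, 6 in all. The authors used TopHat and Bowtie2 on GRCm38 and counted reads with HTSeq, and their raw counts were deposited without normalization. Versions, annotation and strand setting are not given in the sources used here. RPKM values, made by the authors from these counts, were used only for levels. Lines that repeated a name and its counts (463 of 54189 in RNA-seq, 3 of 2265 in small RNA-seq) were dropped. Where a listed gene outside the members had several rows, the row with most reads was used.

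Size factors of each pair of libraries came from DESeq2 1.42.0 in R 4.3.3, and ratios with 95% Clopper-Pearson intervals from Python 3.11.15 and scipy 1.17.1. They cover counting error only. No pseudocount was added. The minimum mean normalized count was 50 in RNA-seq and 15 in small RNA-seq, the limits were 1.67 and 0.60, and 3 reads were taken as the floor. The procedure was tested on data simulated with counting error only, so that test does not cover variation between mice. Alternatives were edgeR 4.0.16 TMM, other scalings, minimums and limits, and a pseudocount of 1.

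All members are named. Of other lists, the 4 genes farthest from a ratio of 1 past a limit, or the first 2 markers of a cell type, may be named. The text says where another gene was picked by its values. Single values of some genes on these lists are not reported here. Members and lists were chosen with earlier results of these data known.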

Additional observations from a re-analysis of the deposited data

Results flagged for a closer look

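Mir511 also has a row in the RNA-seq table, outside the small RNA-seq measurement used for it. That row had 0 reads in Control, 0 in ScxHt and 6 in Dicer cKO. It was singled out because the reads were seen in Dicer cKO and not in the control libraries, while the small RNA-seq reads were 34, 27 and 3. With 0 reads in the other libraries and 1 library per genotype, the difference has no replicate check, and what the 6 reads come from was not tested.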

How the results depend on the processing

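No paired analysis was possible because each genotype had 1 library per assay, and for the same reason no library could be left out. No value past a limit changed direction under the alternatives run, and 106 summary values stayed within the limits set for them, as did 377 values of single members, while 3 moved (the ScxHt/Control ratios of Mrc1, Mertk and F13a1 under total counts, to 1.80, 1.28 and 2.17). Ratios near 1 crossed it under total counts: Mir511 (0.895 to 1.03) and Gpnmb (0.986 to 1.06) in ScxHt/Control, C1qc (0.977 to 1.02) and Maf (0.975 to 1.02) in Dicer cKO/Control, and Siglec1 (1.01 to 0.961, and 0.991 without features above 1%) in Dicer cKO/ScxHt. The 11 counts that moved did so under other limits or minimums. The 16 higher members in ScxHt/Control also varied with the scaling, within the limits set. They were 14 with TMM, 13 with size factors over the 3 libraries and 18 under total counts. In ScxHt/Control, the 16 higher members became 4 at limits of 2 and 0.5 and 3 where the whole interval had to pass, and the 0 lower became 1 with no minimum. In Dicer cKO/Control, the 4 lower members became 2 at a minimum of 200, 2 at limits of 2 and 0.5, 7 at 1.5 and its inverse and 2 with the whole interval, and the 0 higher became 1 at a minimum of 10 and 2 with none. In Dicer cKO/ScxHt, the 0 higher became 1 at a minimum of 10 and 1 with none. Total-count scaling moved the ScxHt/Control median of all features by 0.11 on the log2 scale and turned the shares of all features called higher and lower from 3.03% and 4.71% to 4.75% and 3.39%. The members' median minus that of all features was 0.71 in ScxHt/Control under every scaling run, -0.37 in Dicer cKO/Control and -1.05 in Dicer cKO/ScxHt. Each scaling multiplies all ratios of a comparison by the same factor. These differences could therefore move only through which genes passed the minimum, and their constancy is no check of the processing.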
